A study of Mus musculus with 2 samples.

Results

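The genes described here are 46 genes of zinc transport, metallothioneins and citrate metabolism in luminal epithelial cells of the mouse prostate. They were chosen by symbol: 12 Slc39 and 8 Slc30 zinc transporters, the metallothioneins Mt1 and Mt2 with their regulator Mtf1, 16 mitochondrial enzymes of the citric acid cycle, and 7 genes of citrate export, cytosolic citrate metabolism and the aspartate shuttle. All 46 had a row among the 18724 genes of the deposited table. RNA was sequenced from cells sorted by whether they had kept GFP carried on histone 2B, a label that is diluted at each division. The study asked how label-retaining luminal cells, which its title calls progenitors that resist castration, differ from other luminal cells. GFP-positive, label-retaining cells gave 1 library (the LRC library, 50689229 reads in the table), and GFP-negative, non-retaining cells gave 1 other (the non-LRC library, 48334265 reads), both from mice of 18 weeks. For strain, the promoter of the label, sort markers, any treatment and how many mice went into each library, the answer is not given in the sources used here. With 1 library per group there was no replicate and no test, so that every value compares these libraries and not the conditions.

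Prostate luminal cells are known for storing and secreting large amounts of zinc, and for making and secreting large amounts of citrate. ZIP transporters, encoded by the Slc39 genes, move zinc into the cytosol from outside the cell or from organelles, and ZnT transporters, encoded by the Slc30 genes, move it out of the cytosol into vesicles, the Golgi or the extracellular space. Metallothioneins are small, cysteine-rich proteins that bind zinc in the cytosol, and the transcription factor MTF1 turns on their genes when free zinc is high. High zinc is known to limit the use of citrate in the cycle, so that citrate made by citrate synthase from oxaloacetate and acetyl-CoA can be exported.

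Each gene's normalised counts gave a log2 ratio (LRC over non-LRC), with a pseudocount of 0.5 and an exact 95% counting interval from its reads. The intervals cover counting error only. A gene was called higher or lower when the ratio was at least 2-fold and the interval excluded equality. All 46 members passed the minimum mean of 10 normalised counts that defined the 17183 measured genes. Their reads ranged from 16 in the non-LRC library for Slc39a2 to 78514 there for Mt1.

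Of the 46 members, 11 were higher in the LRC library (23.9%), against 14.5% of all measured genes, and 4 were lower (8.70%), against 19.4%. The 15 called in either direction made up 32.6%, close to the 33.8% of all measured genes. The higher members were the transporter genes Slc30a2, Slc30a10, Slc30a7, Slc39a9, Slc39a11, Slc39a7 and Slc39a4, and the enzyme genes Got1, Idh1, Mdh1 and Fh1. Slc39a14, Slc30a1, Slc30a4 and Idh3a were the lower ones. The median log2 ratio of the members was 0.34, beside -0.0052 for all measured genes. These counts depend on the scale. With a scaling on 2 keratin genes of luminal cells, Krt8 and Krt18 (the keratin scaling), which moves every ratio down by 0.78, 2 members were higher (5.48% of all measured genes were) and 12 lower (40.7%). Scaled on total reads, which moves every ratio down by 0.20, 6 were higher (11.3% of all measured genes were) and 6 lower (23.1%), 12 in either direction (34.4%). Slc30a2 and Slc30a10 stayed higher, and the same 4 genes stayed lower, under all 4 other scalings that were tried. At a 1.5-fold threshold 16 members were higher and 8 lower, 24 in either direction, against 24.2%, 26.8% and 51.0% of all measured genes.

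**Figure D1:**
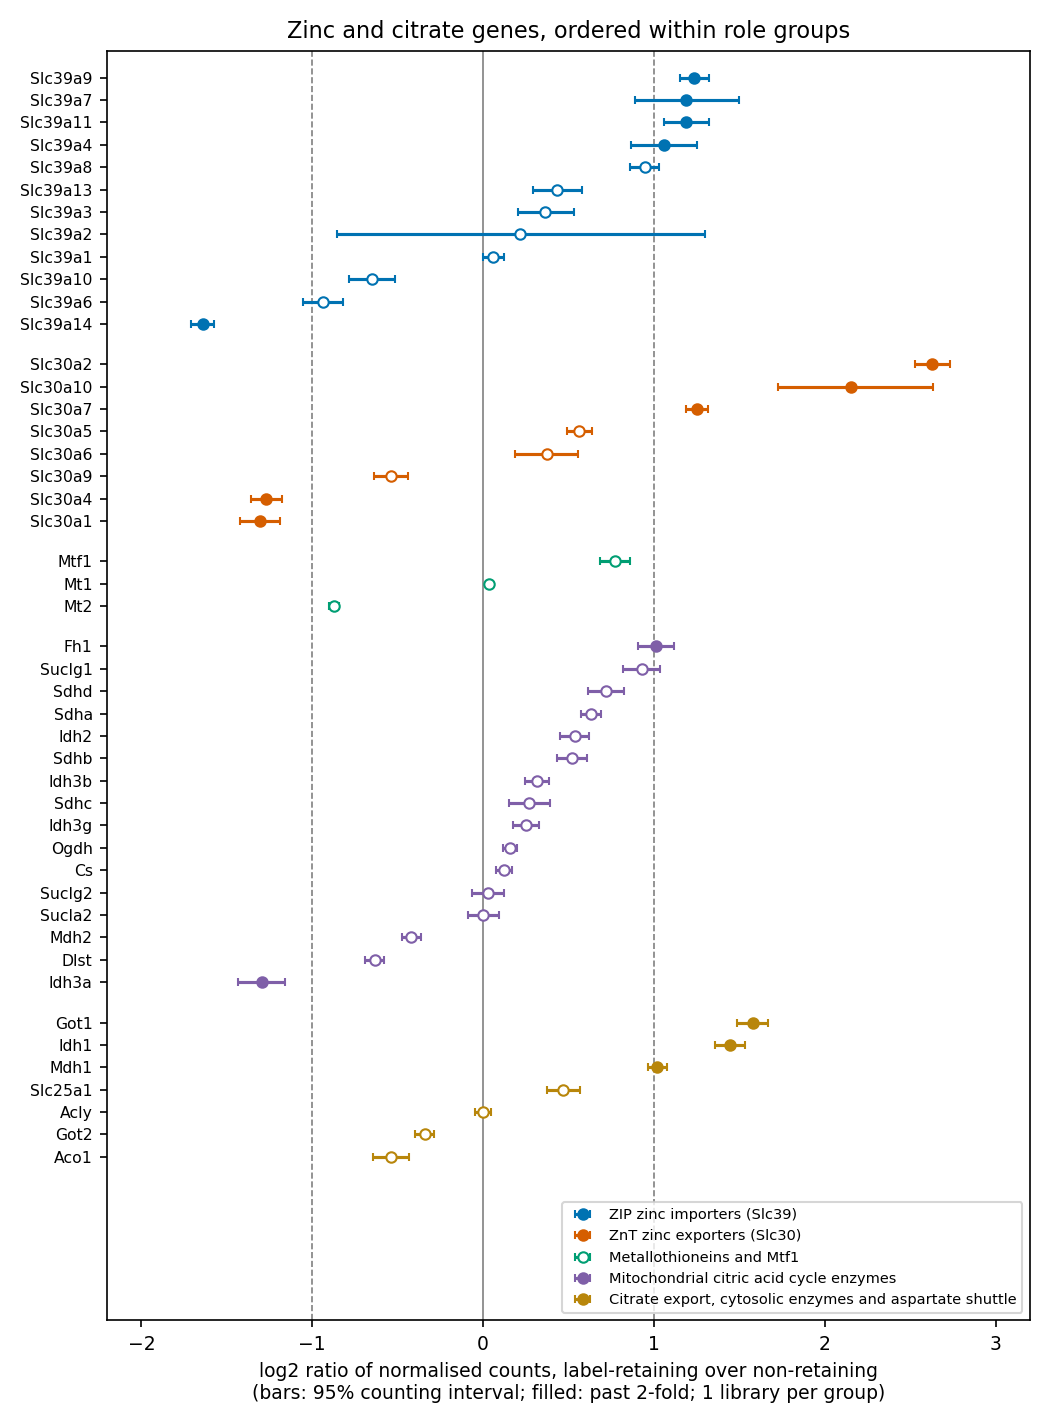
The log2 ratio of each of the 46 genes (label-retaining over non-retaining, 1 library each) is plotted on the x axis, grouped by role, with 95% counting intervals as bars. Filled points are the 15 genes past 2-fold, from Slc30a2 at 2.63 to Slc39a14 at -1.64, and dashed lines mark 2-fold.

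The libraries also differed in markers of other cells. The share of reads on the 11 luminal markers was 5.32% in the LRC library and 1.55% in the other, with 5 higher and 0 lower. Krt8 stood at a log2 ratio of 0.86 and Krt18 at 0.66. All 10 basal markers were lower, at 0.0731% against 0.980% of reads (Krt5 at -4.77, Krt14 at -4.58), and so were all 8 T and natural killer cell markers, at 0.00125% against 0.0588% (Ptprc at -4.82), of which Gzma was at 0 reads in the LRC library. All 6 smooth muscle markers (0.00318% against 0.0503%), 4 of 6 endothelial markers (0.000939% against 0.00258%) and all 4 measured red cell markers (0.000866% against 0.0213%) were lower, the others not called. The 6 fibroblast markers split into 2 higher and 2 lower (0.0312% against 0.207%), with a median of 0.95 and a mean of -0.71. Of the 6 macrophage markers (0.00256% against 0.00289%) 2 were higher and 0 lower, and all 5 seminal vesicle genes were higher (0.166% against 0.00174%), with Svs6 at 0 reads in the non-LRC library. In such bulk libraries, fewer cells of a type and less RNA per cell cannot be told apart. The part of these other cells in the differences of the zinc and citrate genes was not tested.

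Among the ZIP importers, single genes differed in both directions while the summed level was similar under the deposited scaling. The 12 Slc39 genes together stood at 4047 normalised counts per kb of exon in the LRC and 3830.5 in the non-LRC library. Not divided by length, their summed normalised counts were 18361 and 19263, a log2 ratio of -0.07, or -0.85 with the keratin scaling. Of the 12 genes, 4 were higher (Slc39a9, Slc39a11, Slc39a7 and Slc39a4, beside 14.5% of all measured genes), Slc39a14 was lower (19.4%) and 7 were not called. The median log2 ratio was 0.40, which turned to -0.38 with the keratin scaling, where 0 were higher and 3 lower (5.48% and 40.7% of all measured genes).

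Slc39a1, which encodes ZIP1, a zinc importer of the plasma membrane known from prostate cells, was the most abundant importer per length in both libraries. It had 3875 reads in the LRC and 4075 in the non-LRC library, or 1636 and 1568 normalised counts per kb. Its log2 ratio of 0.06 had an interval from -0.0029 to 0.12. The interval just held equality, so that Slc39a1 stood at nearly the same level in both libraries under the deposited scaling. Its log2 ratio was -0.14 with total-read scaling and -0.72 with the keratin scaling. It made up 40.4% and 40.9% of the summed per-length level of the family, or 29.8% and 29.7% when the length of the principal transcript was used in place of all exons.

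Slc39a14 (ENSMUSG00000022094.14, chromosome 14, 70303469 to 70351425, minus strand, mm10) encodes ZIP14, an importer of zinc, iron and manganese that is known to be induced in inflammation. It had 2378 reads in the LRC and 8140 in the non-LRC library. The non-LRC library was thus the high one, by 3.12-fold (log2 ratio -1.64, interval -1.71 to -1.58), and only 12.2% of measured genes had a lower ratio. Its share of the family's per-length level was 5.56% against 18.3%, or 8.78% against 28.5% by principal transcripts. By all exons it was second to Slc39a1 in the non-LRC library and the fifth in the LRC one. The related gene Slc39a8, whose product ZIP8 carries the same metals, had 3096 reads against 1763, a log2 ratio of 0.95 (0.86 to 1.03) just under 2-fold. The ratio of Slc39a8 to Slc39a14 reads was 1.30 in the LRC and 0.217 in the non-LRC library. That difference of 2.59 on the log2 scale (2.48 to 2.69) does not depend on the scaling, because each ratio is taken within 1 library. The markers of T and natural killer cells (median log2 ratio -5.92), basal cells (-4.39), red cells (-4.11), smooth muscle (-3.27) and endothelium (-1.24) lay on the same side as Slc39a14. Those of luminal cells (0.89) and seminal vesicle (6.62) lay on the other side. Fibroblast markers were split, with 4 above and 2 below equality (median 0.95, mean -0.71). Macrophage markers were split too, with 3 above and 3 below (median 0.10). The part of any of these cells in the Slc39a14 difference was not tested.

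The higher importers included genes of internal membranes. Slc39a9, which encodes the Golgi transporter ZIP9 (ENSMUSG00000048833.8, chromosome 12, 80643883 to 80683342, plus strand), had 3472 reads against 1617 (log2 ratio 1.24, 1.15 to 1.32). Slc39a11, which belongs to a separate branch of the family, had 1460 against 703 (1.19, 1.06 to 1.32). Slc39a7, whose product ZIP7 releases zinc from the endoplasmic reticulum, had 281 against 135 (1.19, 0.89 to 1.5). These were all higher in the LRC library, although the count of Slc39a7 is uncertain. On the same strand, 80.7% of its exon bases are shared with another gene, annotated as a processed transcript. The rule for counting reads in such overlaps is not given. Slc39a4, the ZIP4 importer that takes up dietary zinc in the gut, was also higher, with 657 reads against 346 (1.06, 0.87 to 1.25). With total-read scaling Slc39a9 was the 1 ZIP gene still higher, and Slc39a4, Slc39a7 and Slc39a11 were not called.

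Slc39a6 and Slc39a10, whose products ZIP6 and ZIP10 can form a complex at the plasma membrane, stood on the other side. Slc39a6 had 884 reads against 1859 (-0.94, -1.06 to -0.82), just inside 2-fold, and Slc39a10 had 709 against 1221 (-0.65, -0.79 to -0.52). The Golgi and vesicle transporter gene Slc39a13 and the plasma membrane importer gene Slc39a3 were at 0.44 and 0.37. Slc39a2 had only 17 and 16 reads, and its interval from -0.85 to 1.30 held both equality and a 2-fold higher level.

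The share of Slc30a2 among the ZnT exporters differed between the libraries, as did those of Slc30a4 and Slc30a1. Slc30a2, Slc30a10 and Slc30a7 were higher in the LRC library, Slc30a1 and Slc30a4 were lower, and 3 of the 8 were not called, beside 14.5% higher and 19.4% lower of all measured genes. The summed level was 3185 normalised counts per kb in the LRC and 2070.1 in the non-LRC library. The median log2 ratio of 0.47 turned to -0.32 with the keratin scaling, under which Slc30a2 and Slc30a10 were still higher, and Slc30a9 joined the lower genes.

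Slc30a2 (ENSMUSG00000028836.13, chromosome 4, 134343181 to 134354484, plus strand, mm10) encodes ZnT2, which loads zinc into secretory vesicles and is best known from the lactating mammary gland. Its reads numbered 5077 in the LRC and 901 in the non-LRC library, a 6.18-fold higher normalised level (log2 ratio 2.63, 2.53 to 2.73). This was the member farthest above equality, higher than 98.1% of measured genes, and under the keratin scaling its ratio was 1.84. Per length it ranked 1219 among measured genes in the LRC library and 6186 in the non-LRC library. It held 44.6% of the per-length level of the family in the LRC and 11.1% in the non-LRC library.

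By all exons, Slc30a4 and Slc30a1 led the exporters in the non-LRC library, but the order depends on the gene model: by principal transcripts Slc30a5 led there with 26.6%, before Slc30a4 with 20.6% and Slc30a1 with 13.9%. Slc30a4, whose product ZnT4 fills vesicles of secretory epithelia, had 1325 reads in the LRC and 3501 in the non-LRC library (log2 ratio -1.27, -1.36 to -1.18). Slc30a1 (ENSMUSG00000037434.7, chromosome 1, 191906767 to 191913247, plus strand) encodes ZnT1, the main exporter of the plasma membrane and a known MTF1 target. It had 835 against 2262 reads (-1.30, -1.42 to -1.19). Both were thus lower, by 2.41-fold (Slc30a4) and 2.47-fold (Slc30a1), at 7.57% against 28.1% (Slc30a4) and 4.99% against 19.0% (Slc30a1) of the family's per-length level. Within the LRC library there were 6.08 reads of Slc30a2 for each read of Slc30a1, and 0.398 within the non-LRC library. The difference was 3.93 on the log2 scale (3.78 to 4.09), and against Slc30a4 it was 3.90 (3.76 to 4.03).

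The transporters that supply the early secretory pathway lay on the LRC side. Slc30a7, which encodes the Golgi transporter ZnT7, had 6220 reads against 2869 (1.25, 1.19 to 1.31) and was called higher. Slc30a5 and Slc30a6, whose products ZnT5 and ZnT6 work as a pair in the same compartment, stood at 0.56 (0.49 to 0.64) and 0.37 (0.19 to 0.56). With the keratin scaling Slc30a7 was at 0.47, whereas Slc30a5 turned to -0.22 and Slc30a6 to -0.41. Slc30a10, a manganese exporter by its best known function, was at 2.16 (1.72 to 2.63), from 213 reads against 52. Slc30a9, a transporter of mitochondria, had 1391 against 2216 (-0.54, -0.64 to -0.44).

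**Figure D2:**
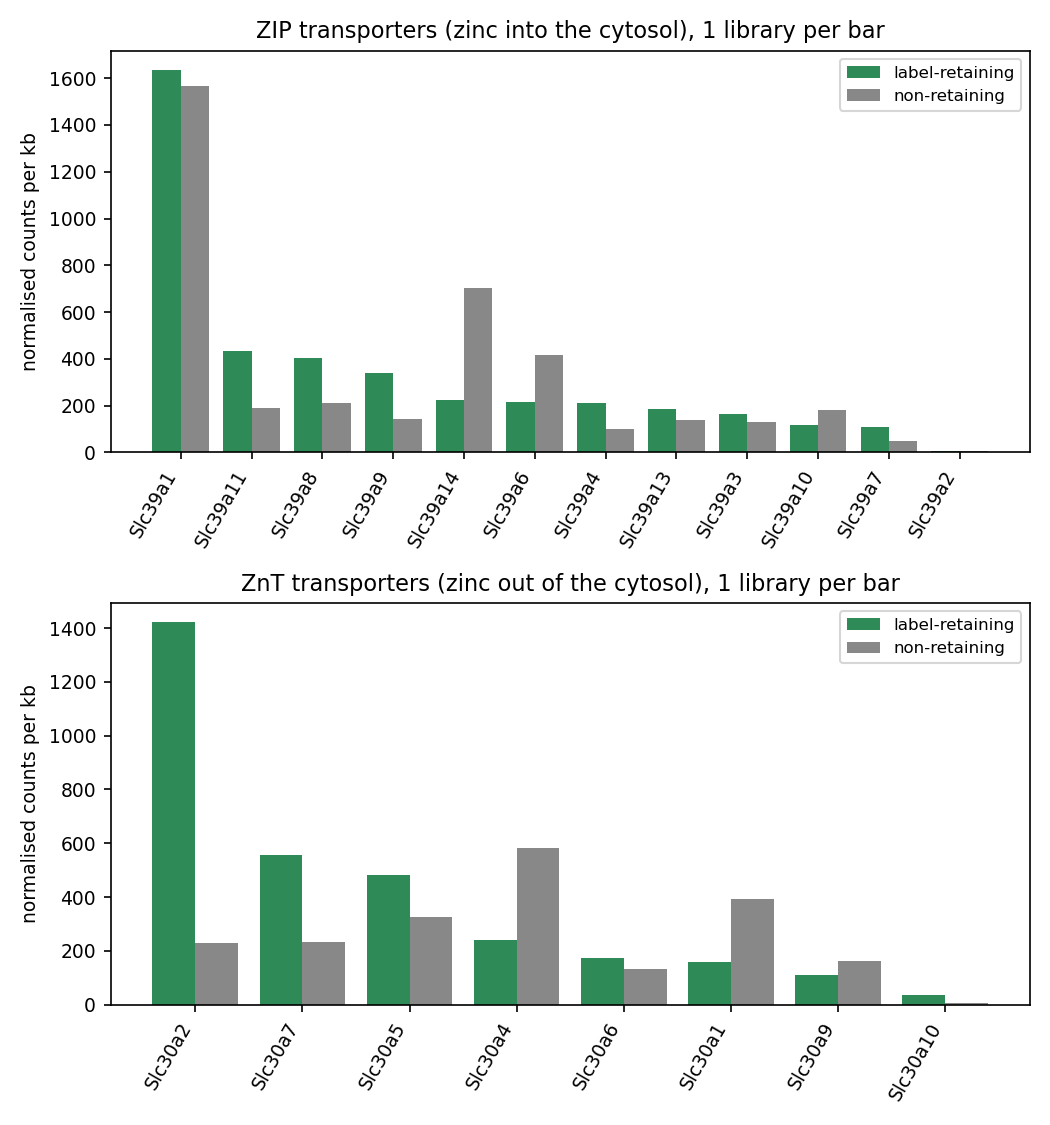
Bars show normalised counts per kb of exon for the 12 ZIP genes (upper) and the 8 ZnT genes (lower) in the label-retaining (green) and non-retaining (grey) libraries, 1 library per bar and no error bars. Slc39a1 leads the ZIP genes in both, whereas among the ZnT genes Slc30a2 leads at 1422 in the label-retaining library and Slc30a4 at 581 in the non-retaining library.

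The metallothionein genes Mt1 and Mt2 were the most abundant members by far, and they did not move together. Mt1 (ENSMUSG00000031765.7, chromosome 8, 94179082 to 94180327, plus strand, mm10) had 73307 reads in the LRC and 78514 in the non-LRC library. Its level was nearly the same in both under the deposited scaling, with a log2 ratio of 0.03 (0.02 to 0.05). That ratio was -0.17 with total-read scaling and -0.75 with the keratin scaling. Mt2 (ENSMUSG00000031762.6, chromosome 8, 94172664 to 94173568, plus strand), its neighbour, had 13821 reads against 27766. That placed it 1.83-fold lower in the LRC library (-0.87, -0.90 to -0.84), inside the 2-fold line, and called lower with the total-read and keratin scalings. Mt1 stood at rank 29 of all measured genes per length in the LRC and 23 in the non-LRC library, and Mt2 at 63 and 40.

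Within the LRC library there were 5.30 Mt1 reads for each Mt2 read, and within the non-LRC library 2.83, a scaling-free difference of 0.91 on the log2 scale (0.87 to 0.94). The Mt2 count carries an uncertainty of its own, since 73.5% of its exon bases are overlapped by an annotated antisense gene that has no row in the table, and whether the counting used strand is not given. Levels per length also depend on the gene model: Mt1 held 71.5% of the summed per-length level of Mt1 and Mt2 in the LRC and 57.2% in the non-LRC library by all exons, and 83.2% and 72.5% by principal transcripts. The regulator gene Mtf1 had 2759 reads against 1772 (0.77, 0.69 to 0.86) and was not called. It turned to -0.01 with the keratin scaling. The median of the group was 0.03 and its mean -0.02.

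Mt3, the metallothionein best known from brain and a neighbour of Mt1 and Mt2 on chromosome 8, was not a member but belongs to the same family. It had 4064 reads in the LRC and 709 in the non-LRC library, a log2 ratio of 2.65 (2.54 to 2.77). Of the 3 metallothionein genes measured it was thus the one past 2-fold, and it made up 4.43% of their summed per-length level in the LRC and 0.60% in the non-LRC library.

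The promoter windows of both abundant metallothionein genes and of 2 exporter genes that stood on opposite sides, Slc30a1 and Slc30a2, are shown because MTF1 is known to bind the metal response element, whose core is written here as TGCACNC or TGCGCNC. The windows come from RefSeq on GRCm38.p6 and run from 250 bases before to 50 after the annotated gene start. All 4 genes lie on the plus strand. Capitals mark every match to either form on either strand, and overlapping matches were counted separately.
Mt1, chr8:94178839-94179138: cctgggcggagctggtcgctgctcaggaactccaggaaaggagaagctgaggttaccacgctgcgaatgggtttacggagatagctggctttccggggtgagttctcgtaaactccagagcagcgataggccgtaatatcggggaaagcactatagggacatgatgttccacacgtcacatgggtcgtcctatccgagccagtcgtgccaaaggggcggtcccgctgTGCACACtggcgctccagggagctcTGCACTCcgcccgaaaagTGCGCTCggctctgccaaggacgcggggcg
Mt2, chr8:94172368-94172667: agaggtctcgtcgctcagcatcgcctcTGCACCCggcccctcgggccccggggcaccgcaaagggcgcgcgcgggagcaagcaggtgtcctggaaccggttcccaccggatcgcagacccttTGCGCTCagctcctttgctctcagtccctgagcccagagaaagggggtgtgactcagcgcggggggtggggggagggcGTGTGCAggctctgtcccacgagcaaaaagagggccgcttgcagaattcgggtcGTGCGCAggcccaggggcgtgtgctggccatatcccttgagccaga
Slc30a1, chr1:191906531-191906830: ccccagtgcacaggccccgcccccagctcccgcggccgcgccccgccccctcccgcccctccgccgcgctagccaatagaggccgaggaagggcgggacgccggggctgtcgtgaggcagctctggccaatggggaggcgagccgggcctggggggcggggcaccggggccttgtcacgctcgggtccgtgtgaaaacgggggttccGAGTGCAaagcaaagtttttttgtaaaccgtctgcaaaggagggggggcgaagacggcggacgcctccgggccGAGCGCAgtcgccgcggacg
Slc30a2, chr4:134343216-134343515: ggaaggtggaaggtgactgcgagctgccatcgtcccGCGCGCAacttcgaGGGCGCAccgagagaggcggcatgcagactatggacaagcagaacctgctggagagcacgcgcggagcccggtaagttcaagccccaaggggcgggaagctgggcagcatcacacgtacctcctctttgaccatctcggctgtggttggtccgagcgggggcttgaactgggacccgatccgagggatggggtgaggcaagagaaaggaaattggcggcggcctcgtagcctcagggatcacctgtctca

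Mt2 held 4 matches and Mt1 held 3, at -23, 2 and 20 bases from its RefSeq start. Windows with at least 4 matches made up 0.517% of all 32851 promoter windows of this length, and those with at least 3 made up 1.97%. Slc30a1 and Slc30a2 held 2 each, and 7.11% of windows held at least 2. The matches of Slc30a1, the lower exporter gene, lay at -43 and 30 from the RefSeq start, and those of Slc30a2, the higher one, at -214 and -200. The GENCODE gene model used for the levels starts Slc30a2 further upstream, at 134343181, so that its whole window lies inside that gene model. For Mt2 the GENCODE start is further downstream, at 94172664, close to the end of its window at 94172667. Windows were found for 41 of the 46 members, 50 windows in all, of which 19 (38%) held at least 1 match, against 25.7% of all windows. Slc30a4 and Slc30a10 had 3 matches each, of which 2 in Slc30a10 overlapped on opposite strands, 1 base apart, and their log2 ratios were -1.27 and 2.16. A match describes letters only and shows neither binding nor its absence.

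**Figure D3:**
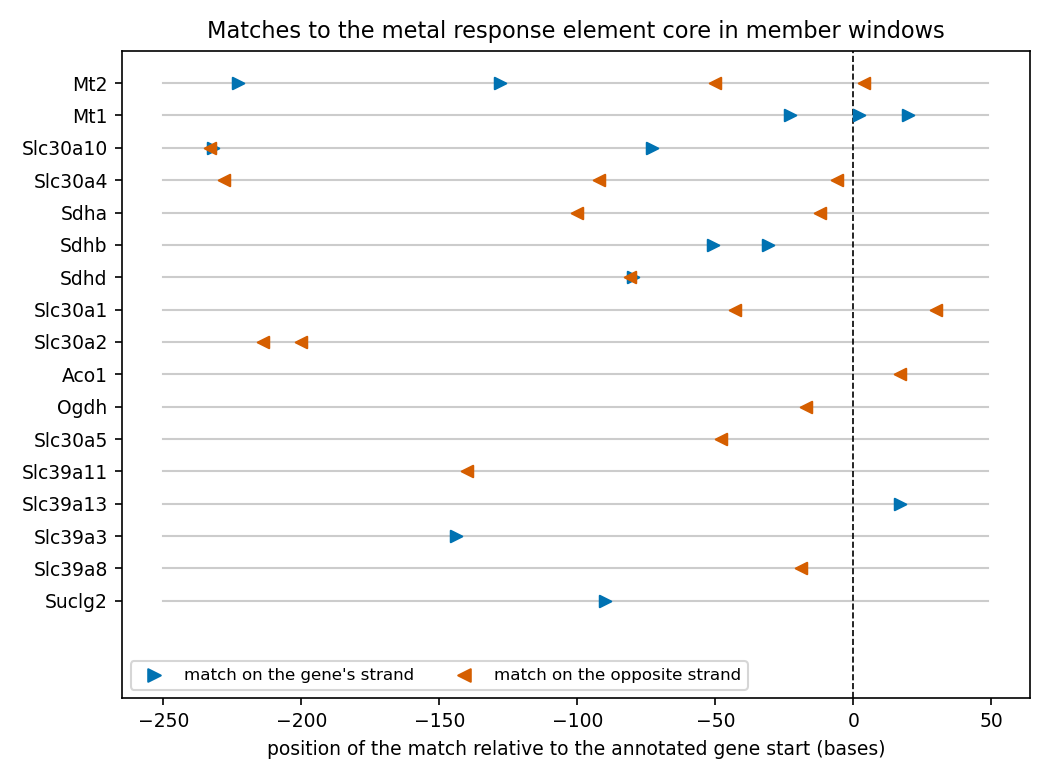
Each row is the promoter window of 1 of the 17 member genes with at least 1 match to TGCACNC or TGCGCNC, and the x axis gives the position of the match in bases from the annotated start (dashed line). Arrowheads point right for matches on the strand of the gene and left for the opposite strand, and Mt2, at the top, has the most with 4.

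The mitochondrial enzymes of the citric acid cycle lay close together. Of 16 genes, Fh1 was higher, Idh3a was lower and 14 were not called, and their log2 ratios spanned -1.29 to 1.01 with a median of 0.26. The 12.5% that were called compare with 33.8% of all measured genes. The median turned to -0.52 with the keratin scaling, where Dlst and Mdh2 joined Idh3a as lower. By all exons Ogdh, Sdhd and Sdha were the most abundant per length in the LRC library, and by principal transcripts Mdh2, Cs and Idh3g were.

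Cs, which encodes citrate synthase, the enzyme that makes citrate, had 7230 reads in the LRC and 7279 in the non-LRC library (0.12, 0.08 to 0.17). Its level was thus nearly the same in both libraries under the deposited scaling, and its log2 ratio was -0.66 under the keratin scaling.

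The enzyme that converts isocitrate in the cycle, the NAD-dependent isocitrate dehydrogenase, had subunit genes on both sides of equality, farther apart than those of the other 3 complexes of the cycle described here. Idh3a, the gene of its catalytic alpha subunit (ENSMUSG00000032279.10, chromosome 9, 54586334 to 54604661, plus strand, mm10), had 584 reads in the LRC and 1572 in the non-LRC library, 2.45-fold lower (-1.29, -1.43 to -1.16). The genes of its beta and gamma subunits, Idh3b and Idh3g, lay on the other side of equality at 0.31 (0.24 to 0.38) and 0.25 (0.18 to 0.32). The ratio of Idh3a to Idh3b reads was 0.163 in the LRC and 0.499 in the non-LRC library, a log2 difference of -1.61 (-1.76 to -1.46), whereas Idh3b and Idh3g kept the same proportion in both libraries within counting error (0.06, -0.04 to 0.16). Idh3a held 4.96% of the per-length level of the 3 subunit genes in the LRC and 13.5% in the non-LRC library. The mitochondrial NADP-dependent enzyme gene Idh2 was at 0.54 (0.45 to 0.62).

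Further round the cycle, Ogdh and Dlst encode parts of the 2-oxoglutarate dehydrogenase complex. Ogdh had 9683 reads against 9538 (0.16, 0.11 to 0.20), and Dlst 4204 against 7163 (-0.64, -0.69 to -0.58). The ratio of Ogdh to Dlst reads was 2.30 in the LRC and 1.33 in the non-LRC library, so that these partners also stood in different proportion. For succinyl-CoA ligase, the shared alpha subunit gene Suclg1 was at 0.93 (0.82 to 1.04), just under 2-fold, and the alternative beta subunit genes Sucla2 and Suclg2 were at 0.0023 and 0.03. The intervals of both beta subunit genes held equality.

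Succinate dehydrogenase, which also serves as complex II of the respiratory chain, had its 4 subunit genes on the LRC side, none of them past 2-fold. Sdhd was at 0.72 (0.62 to 0.82), Sdha at 0.63 (0.57 to 0.69), Sdhb at 0.52 (0.44 to 0.61) and Sdhc at 0.27 (0.15 to 0.39). With the keratin scaling all 4 turned negative, from -0.06 for Sdhd to -0.51 for Sdhc. Fh1, the fumarase gene, had 2049 reads against 1115 (1.01, 0.91 to 1.12), just past 2-fold, and was not called with the total-read scaling. Mdh2, which makes the oxaloacetate that citrate synthase uses, had 4513 against 6620 (-0.42, -0.47 to -0.36).

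Cytosolic enzymes and their mitochondrial partners stood apart. Got1, Idh1 and Mdh1, which encode cytosolic aspartate aminotransferase, isocitrate dehydrogenase and malate dehydrogenase, were the 3 of the 7 genes of this group that were higher in the LRC library, and 0 were lower (14.5% and 19.4% of all measured genes). Their mitochondrial counterparts Got2, Idh2 and Mdh2 were not called. The median of the group was 0.47, or -0.31 with the keratin scaling, under which 0 were higher and 2, Aco1 and Got2, were lower (5.48% and 40.7% of all measured genes).

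Got1 (ENSMUSG00000025190.12, chromosome 19, 43499752 to 43524605, minus strand, mm10) had 3610 reads in the LRC and 1326 in the non-LRC library, 2.99-fold higher (1.58, 1.49 to 1.67). Got2, the mitochondrial form, had 4123 against 5736 (-0.34, -0.40 to -0.28). Aspartate is a known carbon source of citrate in the prostate, and these aminotransferases interconvert it with oxaloacetate. Reads of Got1 per read of Got2 were 0.876 in the LRC and 0.231 in the non-LRC library, a difference of 1.92 on the log2 scale (1.81 to 2.03). By all exons Got1 led the pair per length in the LRC library, with 62.5% of the pair, and Got2 led in the non-LRC library, where Got1 held 30.5%.

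Mdh1 was the most abundant member per length after the metallothioneins in the LRC library, at 3027 normalised counts per kb against 1492. It had 7786 reads against 4210 (1.02, 0.97 to 1.08), just past 2-fold and not called with total-read scaling. Mdh1 reads per Mdh2 read were 1.73 in the LRC and 0.636 in the non-LRC library, 1.44 apart on the log2 scale (1.36 to 1.52). Idh1 (ENSMUSG00000025950.15, chromosome 1, 65158616 to 65186500, minus strand), a cytosolic source of NADPH, had 3566 against 1438 (1.44, 1.36 to 1.53). The ratio of Idh1 to Idh2 reads was 1.30 against 0.690, 0.91 apart (0.79 to 1.03). In all 3 pairs the proportion lay further to the cytosolic form in the LRC library.

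Another cytosolic enzyme gene of the group, Aco1, stood on the other side of equality. It encodes the cytosolic aconitase that doubles as iron regulatory protein, and it had 1190 reads in the LRC against 1894 in the non-LRC library (-0.54, -0.64 to -0.43). It was not called under the deposited scaling. The pairs of genes whose reads are set in ratio here were chosen after their values were seen.

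The gene for carrying citrate out of mitochondria stood on the LRC side, inside 2-fold, and the gene for splitting citrate stood near equality. Slc25a1, the mitochondrial citrate carrier gene, had 1928 reads against 1527 (0.47, 0.37 to 0.57). Acly, which encodes ATP citrate lyase, the enzyme that turns exported citrate into acetyl-CoA for lipid synthesis, had 6754 against 7412 reads (-0.00057, -0.05 to 0.05). Neither was called, and under the keratin scaling they were at -0.31 and -0.78.

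**Figure D4:**
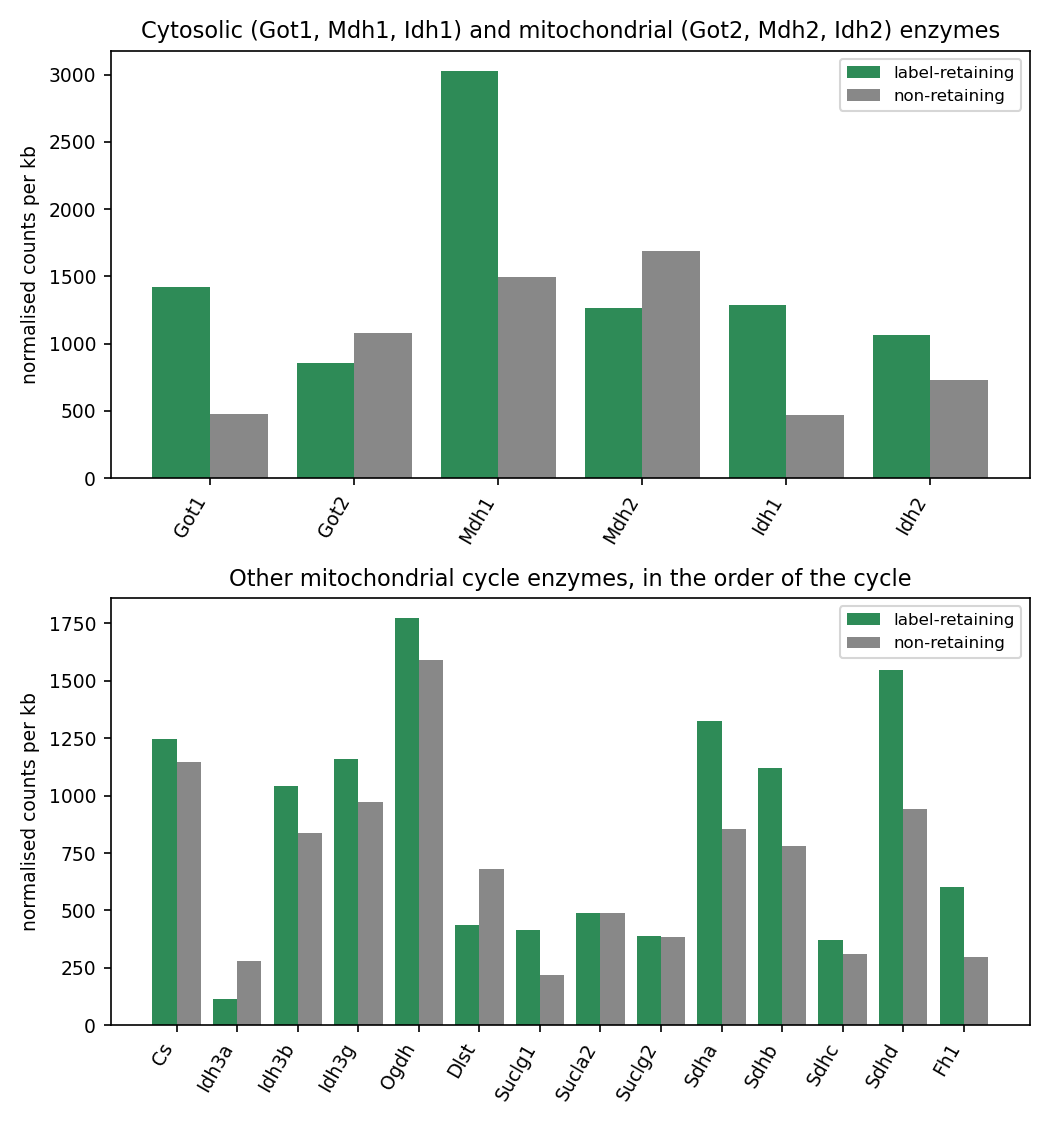
Bars show normalised counts per kb of exon in the label-retaining (green) and non-retaining (grey) libraries, 1 library per bar and no error bars, for 3 cytosolic and mitochondrial enzyme pairs (upper) and for the other enzymes in the order of the cycle (lower). Got1, Mdh1 and Idh1 have the taller green bars, Got2 and Mdh2 the taller grey bars, and Idh3a stands far below Idh3b and Idh3g.

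The genes around these members were taken from 4 further lists, whose counts stand beside 14.5% higher and 19.4% lower among all measured genes. Of 14 genes of pyruvate entry, 2 were higher and 1 lower (median 0.19, or -0.60 with the keratin scaling), a share of higher genes near that background. The subunit genes of pyruvate dehydrogenase lay near equality, with Pdha1, the most abundant in the LRC library, at 6195 reads against 6073 (0.16, 0.11 to 0.21). Of the genes for their kinases, Pdk1 (0.19) and Pdk3 (0.18) also lay near equality, whereas Pdk4 and Pdk2 did not. Pdk4, which encodes a kinase that switches pyruvate dehydrogenase off and is known to be induced by fasting and glucocorticoids, had 696 reads in the LRC and 10059 in the non-LRC library (-3.72, -3.83 to -3.61). Pdk2, another such kinase gene, was higher, with 1675 against 725 (1.34, 1.22 to 1.47). Pcx, for pyruvate carboxylase, which makes oxaloacetate, was also higher at 1.2 (1.09 to 1.32). By their medians, the basal, T and natural killer cell, red cell, smooth muscle and endothelial markers lay on the same side as Pdk4. The luminal and seminal vesicle markers lay on the other side by theirs. Fibroblast markers were split, with 4 above and 2 below equality, and so were macrophage markers, with 3 above and 3 below. The part of any of these cells in the Pdk4 difference was not tested.

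Among 13 other genes around the cycle, 3 were higher and 1 lower (median 0.57, or -0.21 with the keratin scaling). Gpt2, the mitochondrial alanine aminotransferase gene and the most abundant of the list, had 23022 reads in the LRC and 6564 in the non-LRC library (1.94, 1.90 to 1.98). Me1, for the cytosolic malic enzyme, a further source of NADPH, had 2916 against 937 (1.77, 1.66 to 1.88), whereas Me3, a mitochondrial form, had 336 against 843 (-1.19, -1.38 to -1.01). Slc25a10, the dicarboxylate carrier gene of mitochondria, was at 1.15 (1.04 to 1.27). Glud1, which feeds glutamate carbon into the cycle, was at -0.97, inside 2-fold.

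Of the plasma membrane carriers of citrate and aspartate, 5 were measured, 2 higher and 2 lower, with a median of 0.72 and a mean of -0.48 (the median was -0.07 with the keratin scaling). Ank, whose human counterpart is known to export citrate and ATP, had 799 reads in the LRC and 3413 in the non-LRC library (-1.96, -2.07 to -1.85). Slc1a3, a glutamate and aspartate importer gene, had 63 against 1097 (-3.98, -4.38 to -3.62). The neutral amino acid carrier genes of the same family lay on the other side, Slc1a4 at 1.52 (1.43 to 1.62) and Slc1a5, the most abundant of the list, at 0.72 (0.67 to 0.76). Slc1a1, the aspartate carrier gene EAAC1, had 45 reads against 20 (1.28, 0.51 to 2.14). Of 6 other measured zinc genes, Mt3, described above and the most abundant, was higher, and the vesicle exporter gene Slc30a3 was lower, from 2 reads against 21 (-2.97, -6.40 to -1.23). Their median was 0.13, or -0.65 with the keratin scaling.

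**Figure D5:**
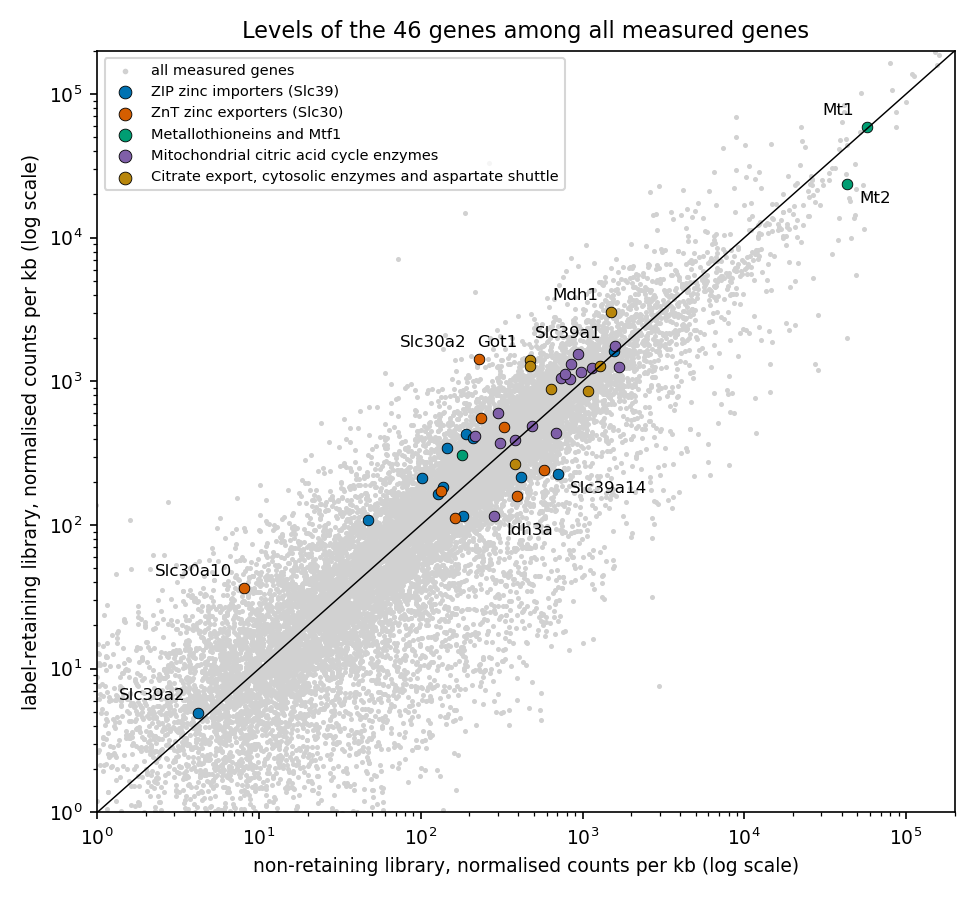
Normalised counts per kb of exon in the label-retaining library (y) are plotted against the non-retaining library (x), both on log scales, for all measured genes (grey) and the 46 genes by role (colours), with equality as a line. Mt1 and Mt2 lie at the top right, Slc30a2 and Got1 above the line, and Slc39a14 and Idh3a below it.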

How the data were processed

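RNA of sorted cells was made into Illumina TruSeq Stranded Total RNA libraries, per the labels' protocols. The deposited values are a normalised signal: gene read counts that the authors divided by 1 size factor per library, as the values show, since all were whole multiples of a constant step (100% within 0.001 reads; size factors 1.00 and 1.10). Build mm10 and the tools HTSeq 0.6.0 and DESeq 1.16.0 are listed in the submitters' processing notes, without roles, beside Bowtie2 2.1.0, TopHat2 2.0.10 and CASAVA 1.8.2. The annotation and the treatment of strand and of reads shared with other genes or pseudogene copies are not given. Symbols, positions and exon lengths came from GENCODE M21 (GRCm38), by identifier without version; 18634 of 18724 rows matched.

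Reads were recovered, and log2 ratios, intervals (Clopper-Pearson) and calls computed for the 17183 measured genes with Python 3.11.15 and scipy 1.17.1. The calculation was tested on simulated counts. Intervals of differences between 2 ratios used the normal approximation on reads. Alternatives were 4 scalings (median of ratios, TMM in edgeR 4.0.16, total reads, Krt8 plus Krt18), a pseudocount of 5, no filter or a minimum mean of 100, a 1.5-fold threshold, and transcript lengths. The principal transcript length was chosen after seeing the data. Named were all called members, the metallothionein group, and in each role group the 3 most abundant and the 2 extreme genes, and from other lists the called and the most abundant genes; further genes were named after their values were seen. Members and lists were chosen with earlier results of these data known.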

Additional observations from a re-analysis of the deposited data

How the results depend on the processing

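No paired analysis was possible because each group has 1 library, and no replicate could be left out. With median-of-ratios and TMM scaling, a pseudocount of 5, no filter or a minimum mean of 100, the same 11 members were higher and the same 4 lower, and each member's log2 ratio stayed within its counting interval where recomputed. At 1.5-fold 16 members were higher and 8 lower, against 4151 (24.2%) and 4608 (26.8%) of all measured genes. At a minimum mean of 100, 1599 genes (13.3%) were higher and 2009 (16.7%) lower of 11998, and the median of the plasma membrane carriers turned to -0.62, since Slc1a1 was left out. Without a filter that median was 0.51. Total-read scaling left 6 members higher, with a median of 0.14 for all members, 0.20 for ZIP genes, 0.26 for ZnT genes, -0.17 for the metallothionein group, 0.0595 for cycle enzymes, 0.27 for the citrate export and cytosolic group, -0.0151 for pyruvate entry, 0.37 for other cycle genes and 0.51 for plasma membrane carriers. The keratin scaling gave 2 members higher and 12 lower, 942 genes higher and 6993 lower, and medians of -0.44 (all members), -0.38 (ZIP), -0.32 (ZnT), -0.75 (metallothionein group), -0.52 (cycle), -0.31 (citrate export and cytosolic), -0.65 (other zinc), -0.60 (pyruvate entry), -0.21 (other cycle genes) and -0.0678 (plasma membrane carriers). These 2 scalings shift every ratio by a constant, so the moves follow from their construction.

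Shares per length moved with the gene model in both libraries alike. In the order LRC, then non-LRC, the longest transcript gave Slc30a2 39.1% and 9.72% of ZnT, Slc39a1 31.1% and 30.7% of ZIP, Idh3a 6.51% and 17.2% of its complex, Got1 51.8% and 22.1% and Mdh1 56.6% and 32.5% of their pairs. The principal transcript gave Slc30a2 37.1% and 9.19%, Slc39a1 29.8% and 29.7%, Got1 51.8% and 22.1%, Mdh1 54.2% and 30.4%, and Mt1 83.2% and 72.5%. Depth limits the genes with few reads, of which Slc39a2 has the widest interval among the 46 members.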

Other observations

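Mitochondrial carriers of the Slc25 family, to which the citrate carrier Slc25a1 belongs, were looked at after the values were seen. There were 6 higher and 4 lower genes among the 45 measured (median log2 ratio -0.04), beside 14.5% and 19.4% of all measured genes called in these directions. The higher ones were Slc25a30 at 1.35 (1955 reads against 839), Slc25a35 at 1.34, Slc25a23 at 1.23, Slc25a36, a pyrimidine nucleotide carrier gene, at 1.16 (8918 against 4382), Slc25a10 at 1.15 and Slc25a29 at 1.06. The lower ones were Slc25a25, a calcium-dependent ATP-Mg and phosphate carrier gene, at -1.39 (5132 against 14740), Slc25a53 at -1.23, and, from few reads, Slc25a21 at -1.78 (10 against 39) and Slc25a18 at -2.19 (6 against 32). Slc25a5, the ADP/ATP carrier gene, had 9273 against 19825 reads (-0.96, -0.998 to -0.93) and was just inside 2-fold. The 6 higher genes lay between 1.06 and 1.35, so that none stayed past 2-fold with the keratin scaling, which lowers each by 0.78.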
